A study of Mus musculus with 30 samples.

Results

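The 31 genes described here make cholesterol and long-chain fatty acids or control that synthesis. A gene entered if a probe set on either chip of a 2-chip Affymetrix set was annotated to it alone, and it was represented by its brightest such probe set, from the A chip where it had a tested one there. This gave 30 of the 31 listed genes, 28 on A and 2 (Insig1 and Acaca) on B, among 18193 genes named on the chips. Acat2, a thiolase at the entry to the mevalonate pathway, had no probe set annotated to it alone in the table used. All 30 lay among the brighter 60% of probe sets, which were the ones tested. They comprise 17 measured enzymes of sterol synthesis, 8 of fatty acid synthesis, elongation and desaturation, and 5 regulators and carriers.

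The samples are total RNA of cell cultures whose labels name the leg muscle of the mouse as source, taken at 0, 4, 12, 24 and 48 h. For every hour there were 3 arrays of each chip, numbered as replicates, which makes 30 arrays. The labels give no strain, age, genotype, agent or medium, and they do not name the event at 0 h. Whether the replicates came from separate cultures, or whether same-numbered A and B arrays carried the same RNA, is not stated there, and the p-values reflect array-to-array spread that could be technical.

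Cholesterol is built from acetyl-CoA through mevalonate, isoprenoid units, squalene and lanosterol. Its enzymes are controlled together by the transcription factor SREBP-2, encoded by Srebf2, while SREBP-1, encoded by Srebf1, acts mainly on fatty acid enzymes. When membrane sterol is high, INSIG proteins hold the SREBP precursors in the endoplasmic reticulum, and when it is low the factors are cleaved and enter the nucleus, where they bind sterol response elements near partner sites for NF-Y and Sp1. Dividing and fusing muscle cells need both lipids for membrane.

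The start-site regions of 6 members are shown because 4 of them (Hmgcs1, Idi1, Cyp51 and Msmo1) were among the 6 members called lower at 4 h in replicates 1 and 2, Fasn was called lower there at 24 h, and Insig1 is the feedback regulator. Each is the 180 bases before the transcription start, 5′ to 3′, from RefSeq's GRCm38.p6. Capitals mark a sterol response element (TCACNCCAC), an E-box (CACGTG), an NF-Y box (CCAAT) or an Sp1 box (GGGCGG) on either strand. The stretches lie at chr13:119690171-119690350 (+ strand), chr13:8885426-8885605 (+ strand), chr5:4104698-4104877 (- strand), chr8:64733579-64733758 (- strand), chr5:28071232-28071411 (+ strand) and chr11:120824548-120824727 (- strand), in that order.
Hmgcs1: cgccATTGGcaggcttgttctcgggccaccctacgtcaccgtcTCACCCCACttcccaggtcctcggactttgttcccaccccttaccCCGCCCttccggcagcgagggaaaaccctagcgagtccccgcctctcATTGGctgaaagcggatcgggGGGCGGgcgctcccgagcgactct
Idi1: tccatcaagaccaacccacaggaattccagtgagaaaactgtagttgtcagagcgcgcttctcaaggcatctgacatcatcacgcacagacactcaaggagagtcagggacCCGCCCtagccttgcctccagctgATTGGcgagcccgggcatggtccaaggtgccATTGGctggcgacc
Cyp51: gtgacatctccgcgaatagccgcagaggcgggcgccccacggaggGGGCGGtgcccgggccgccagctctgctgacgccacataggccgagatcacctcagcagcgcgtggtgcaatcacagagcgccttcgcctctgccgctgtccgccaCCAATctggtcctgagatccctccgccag
Msmo1: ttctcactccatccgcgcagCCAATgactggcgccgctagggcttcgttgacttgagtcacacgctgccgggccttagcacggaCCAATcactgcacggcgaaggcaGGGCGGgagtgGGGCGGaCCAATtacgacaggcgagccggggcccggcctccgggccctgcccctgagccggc
Insig1: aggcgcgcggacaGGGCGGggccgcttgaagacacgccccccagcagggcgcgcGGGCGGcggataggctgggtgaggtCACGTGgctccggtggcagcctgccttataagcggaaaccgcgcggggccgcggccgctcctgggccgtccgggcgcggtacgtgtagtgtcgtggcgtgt
Fasn: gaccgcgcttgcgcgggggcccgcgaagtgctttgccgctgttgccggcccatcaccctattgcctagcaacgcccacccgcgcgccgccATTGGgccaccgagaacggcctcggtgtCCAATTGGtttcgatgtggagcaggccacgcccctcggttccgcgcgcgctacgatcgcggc
The sterol response element was found only in the Hmgcs1 stretch among these 6, on the printed strand 137 bases before the start. NF-Y boxes stood in 5 of the 6, with 3 each in Msmo1 and Fasn, where a pair overlaps on opposite strands. The Insig1 stretch had none and held the E-box.

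Over RefSeq windows of 300 bases (250 before the start and 50 after it), 24 of the 31 listed genes matched, with 29 windows. CCAAT on either strand was in 20 of these 29 windows (69.0%), against 38.19% of 21263 windows of protein-coding genes. GGGCGG was in 21 (72.4%), against 46.2%. TCACNCCAC was in 1 (3.4%), against 1.19%, and a longer form of the element was in 0, against 0.07%. CACGTG, which reads the same on both strands, was in 4 (13.8%, in Hsd17b7, Insig1, Dhcr7 and Sc5d), against 7.84%. A match describes letters in a window, and a window without one says nothing about the factor.

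The deposited intensities had been scaled so that each array had about the same trimmed mean (between 497.7 and 498.6 on chip A and between 495.9 and 497 on chip B, controls left out). The median intensity of an array lay between 154.75 and 183.5 on chip A, and on chip B between 219.7 and 256. No array duplicated another. Differences are on the log2(intensity + pseudocount) scale, with a pseudocount of 29 on A and 54 on B, which understates changes of dim genes, and a member was called at an adjusted p under 0.05 in limma. Of 27081 tested probe sets, 6608 (24.4%) were called between replicate 3 and replicates 1 and 2, against 0 (775 at an unadjusted p under 0.05) between replicates 2 and 1. Results are therefore given over all arrays and over replicates 1 and 2 alone, where each hour has 2 arrays. Values of a gene on single arrays are intensities in the order replicate 1, 2 and 3. They are compared between arrays and not between genes. All 15 skeletal muscle markers were among the tested probe sets, while the adipocyte genes Adipoq, Lep and Cidec had mean intensities of 17.6, 8.87 and 8.43 and the hepatocyte genes Alb and Ttr had 54.0 and 11.1. Of these lists, Cebpa (211) and Retn (137), and Apob (192) and Cyp2e1 (121), were among the tested probe sets.

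At 4 h the mean of each of the 30 members was below its 0 h mean, by a median of -0.38 on the log2 scale, where all tested probe sets had a median of -0.02. None was called over all arrays (0 of 27081 probe sets, 0%, were called). At an unadjusted p under 0.05 there were 4 members and 1403 of the 27081 probe sets. In replicates 1 and 2 alone 6 members were called lower at 4 h (Msmo1, Idi1, Cyp51, Hmgcs1, Fdps and Fads2), among 11 of 27081 probe sets called lower (0.0406%). These arrays measure cell mixtures in bulk, so fewer cells of a type and less RNA per cell cannot be told apart. The branches then parted in replicates 1 and 2, where the sterol enzymes moved back towards their level at 0 h by 24 h while the fatty acid enzymes were lowest at 24 h. In replicate 3 the fatty acid enzymes stayed near their level at 0 h, and the sterol enzymes were lower than at 0 h at 4, 24 and 48 h and higher at 12 h. The plot of branch level on each array shows all 3 courses.

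**Figure D1:**
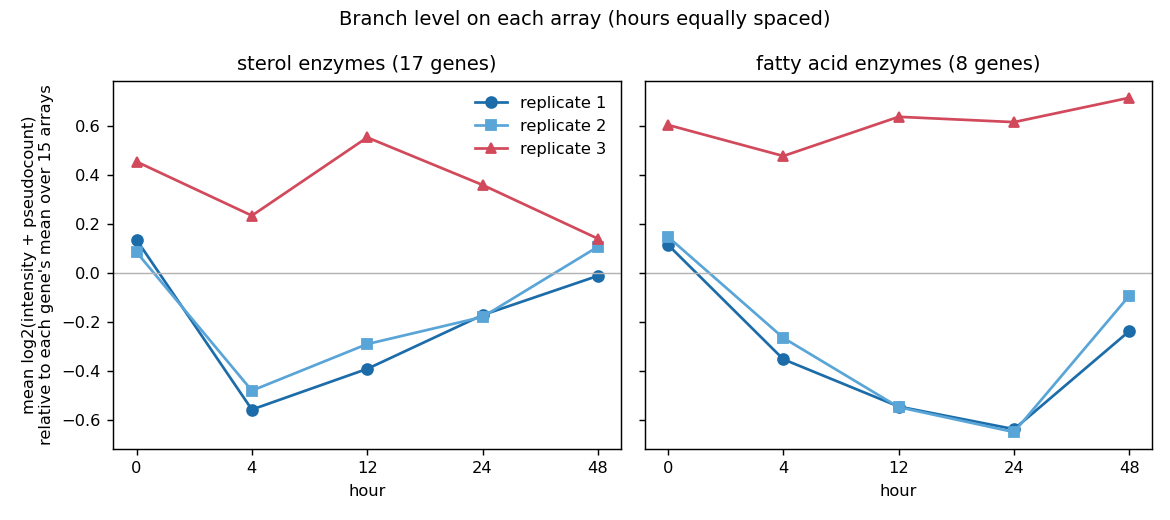
Mean log2 level of the 17 sterol enzymes (left) and the 8 fatty acid enzymes (right) on each array against hour, relative to each gene's mean over the 15 arrays of its chip, with 1 line per replicate and hours equally spaced. Acaca was taken from the B array of the same hour and number. In replicates 1 and 2 the sterol enzymes are lowest at 4 h (-0.56 and -0.48) and the fatty acid enzymes at 24 h (-0.64 and -0.65), and replicate 3 is the highest line at every hour in both panels.

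The mevalonate enzymes turn acetyl-CoA into farnesyl diphosphate. Hmgcs1, which makes HMG-CoA, read 4147, 4033 and 4659 at 0 h, 2281, 2253 and 4593 at 4 h, 2794, 3025 and 5925 at 12 h, 3556, 3503 and 5581 at 24 h and 3189, 4151 and 3993 at 48 h. At 4 h replicates 1 and 2 were the lowest of its arrays while replicate 3 was near its value at 0 h, so the hours overlapped. Over all arrays the 4 h log2 difference was -0.57 (SE 0.30, adjusted p = 0.995), and in replicates 1 and 2 it was -0.84 (adjusted p = 0.036). The 3 other tested A probe sets of Hmgcs1 had smaller 4 h differences over all arrays, of -0.12, -0.24 and -0.50.

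Idi1, the isomerase that supplies the active isoprenoid unit, read 1798, 1389.8 and 1911 at 0 h, 731, 797 and 1677 at 4 h, 1095, 1238 and 1886 at 12 h, 1496, 1626 and 1891 at 24 h and 2027, 1957 and 1547 at 48 h. Its arrays of replicates 1 and 2 were lowest at 4 h and highest at 48 h, while those of replicate 3 stayed within a narrower range and were lowest at 48 h. The 4 h difference was -0.74 (SE 0.27, adjusted p = 0.883) over all arrays and -1.02 (adjusted p = 0.0242) in replicates 1 and 2. From 4 to 24 h Idi1 rose in those arrays by 1.00 (adjusted p = 0.000744). It was called higher in replicate 3, at 0.39 (SE 0.14, adjusted p = 0.0399), a call that was lost when the 4 h array of replicate 3 was left out (log2 difference 0.22) and when any of 9 other single arrays was.

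Fdps makes farnesyl diphosphate, the branch point to sterols and to prenyl groups. It read 5201, 5239.7 and 7076 at 0 h, 3206, 2921 and 6388 at 4 h, 3126, 2752 and 7876 at 12 h, 3564, 3986 and 6298 at 24 h and 4013, 4016 and 5416 at 48 h. Every array of replicate 3 was above every array of the other replicates. Its difference in replicates 1 and 2 was -0.76 (adjusted p = 0.036) at 4 h and -0.83 (adjusted p = 0.00245) at 12 h, with values of -0.15 and 0.15 in replicate 3.

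Mvk, mevalonate kinase, read 306, 326 and 583 at 0 h, 168, 214 and 403 at 4 h, 144, 206 and 524 at 12 h, 198, 189 and 397 at 24 h and 105, 228 and 295 at 48 h. It was highest at 0 h in each replicate and had its lowest mean at 48 h, where its arrays did not overlap those at 0 h. Among all probe sets 8.68% were lower at 48 h without overlap. The 48 h difference was -0.90 (SE 0.45, adjusted p = 0.376), and with replicate 3 as a term it was called (adjusted p = 0.0135). Pmvk and Mvd, the next enzymes, had differences between -0.37 and 0.15 at every hour in replicates 1 and 2 and over all arrays, and Mvd was not called in any comparison over all arrays.

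Fdft1, Sqle and Lss carry farnesyl diphosphate to squalene, squalene epoxide and lanosterol. The probe sets of Fdft1, Lss and Mvd have suffixes (x_at or s_at) that mark probes which can match further transcripts. Fdft1 read 1804, 1953 and 2662 at 0 h, 898, 1243 and 1859 at 4 h, 1418, 1365 and 2568 at 12 h, 1378, 1382 and 1707 at 24 h and 1817, 1576 and 1339 at 48 h. Its arrays at 24 h were all below those at 0 h (9.84% of all probe sets were), and replicate 3 was at its own lowest value at 48 h. The 24 h difference was -0.50 (SE 0.27, adjusted p = 0.383). Sqle, the epoxidase that is a known control point of the pathway, read 2038, 1787 and 2659 at 0 h, 1298, 1413 and 1827 at 4 h, 1511, 1530.4 and 2568 at 12 h, 1214, 1452 and 2491 at 24 h and 1526, 1554 and 2186 at 48 h. At each hour replicate 3 was the highest of its arrays. Sqle fell by 0.51 on the log2 scale at 24 h in replicates 1 and 2 (adjusted p = 0.0204).

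Lss, lanosterol synthase, read 333, 253 and 754 at 0 h, 170.4, 244 and 529 at 4 h, 179.6, 171 and 936 at 12 h, 197, 224 and 662 at 24 h and 268, 314 and 400.3 at 48 h. Its lowest array in replicate 3, at 48 h, was above the highest of the 10 others. No comparison between hours called it, and its difference in replicate 3 was the largest of the sterol enzymes, at 1.35 (SE 0.17, adjusted p = 1.42e-05).

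The enzymes from lanosterol to cholesterol remove methyl groups and move or reduce double bonds. Msmo1, the sterol C4-methyl oxidase, read 1944, 1603 and 2735 at 0 h, 726, 533 and 2128 at 4 h, 1007, 1140.3 and 3011 at 12 h, 1507, 1463 and 2739.7 at 24 h and 1309.8, 1672 and 2484 at 48 h. Its 4 h arrays of replicates 1 and 2 were the lowest of its 15, and every array of replicate 3 was above all arrays of the other replicates. It had the largest 4 h difference of all members, -1.09 (SE 0.48, adjusted p = 0.967) over all arrays and -1.46 (adjusted p = 0.00664) in replicates 1 and 2, and it rose from 4 to 24 h in those by 1.22 (adjusted p = 0.000658). A second, dimmer probe set for Msmo1 on B gave a 4 h log2 difference of -0.03.

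Cyp51, lanosterol demethylase, was called in the same direction at 4 h in replicates 1 and 2. It read 1649.8, 1549 and 1894 at 0 h, 879.5, 853 and 1552 at 4 h, 1091, 1010.1 and 1508 at 12 h, 1342, 1366 and 1994 at 24 h and 1456, 1666 and 1759 at 48 h. The 4 h arrays of replicates 1 and 2 were below all its others, and at 12 h its 3 arrays were below those at 0 h without overlap, as were 5.28% of all probe sets. The difference in replicates 1 and 2 was -0.86 (adjusted p = 0.0284) at 4 h, -0.59 (adjusted p = 0.0226) at 12 h and -0.24 (adjusted p = 0.257) at 24 h.

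Sc5d, which introduces the C5 double bond, read 776, 749 and 1107 at 0 h, 500.4, 518 and 965 at 4 h, 501, 593 and 1302 at 12 h, 660.3, 664 and 1098 at 24 h and 893, 836 and 1175 at 48 h. Replicate 3 was above all other arrays, and no hour was called for Sc5d against 0 h. Hsd17b7, a 3-keto reductase of this route, read 539, 374 and 499 at 0 h, 376, 245 and 426 at 4 h, 387, 464 and 654 at 12 h, 431, 488 and 511 at 24 h and 589.5, 700.4 and 557 at 48 h. Its 48 h arrays were above all its 0 h arrays, with a difference of 0.38 (SE 0.22, adjusted p = 0.46), and 10.4% of all probe sets were higher at 48 h without overlap. It also went against most of its list at 12 and 24 h, with differences of 0.07 and 0.03, while its 3 other tested probe sets gave -0.64 to -0.15 at 12 h and -0.46 to -0.25 at 24 h. At 48 h these gave -0.28, -0.16 and 0.01. Dhcr7, the last reductase, had differences of 0.03 and 0.10 at 12 and 24 h.

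Tm7sf2, a C14 sterol reductase, had another course. It read 426, 548 and 268 at 0 h, 379.6, 367 and 336 at 4 h, 286, 338 and 310.4 at 12 h, 207, 244 and 214 at 24 h and 356, 335 and 260.1 at 48 h. All 3 of its 24 h arrays were below its 0, 4 and 12 h arrays, where 9.84% of all probe sets lay below 0 h alone without overlap. In replicate 3 Tm7sf2 was the only sterol enzyme with a lower mean than in the others. The 24 h difference was -0.77 (SE 0.21, adjusted p = 0.0635) over all arrays, -1.01 (adjusted p = 0.00195) in replicates 1 and 2, and it was called with replicate 3 as a term (adjusted p = 0.0064). It was also the only sterol enzyme called lower at 24 h than at 4 h in replicates 1 and 2, at -0.66 (adjusted p = 0.0264). Nsdhl and Ebp, the other members of the list, were not called against 0 h over all arrays, and the arrays of Nsdhl at 4 h lay below those at 0 h without overlap, at -0.40 (SE 0.22, adjusted p = 0.999), as did 5.37% of all probe sets.

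Acly, Acaca and Fasn make palmitate from citrate. Acly, ATP citrate lyase, read 2839, 3131 and 3352 at 0 h, 2054, 2302 and 3086 at 4 h, 2411, 1985 and 3497 at 12 h, 1911, 1994 and 2954 at 24 h and 2020.3, 2223 and 3074 at 48 h. Its 0 h arrays of replicates 1 and 2 were the highest of those replicates, and replicate 3 varied little. It was called lower in replicates 1 and 2 at 24 h, at -0.60 (adjusted p = 0.00883), and at 48 h, at -0.49 (adjusted p = 0.0326). A dimmer Acly probe set on B gave 0.11 at 24 h and -0.15 at 48 h over all arrays, against -0.46 and -0.37.

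Acaca, acetyl-CoA carboxylase, measured on B, read 1916, 2438 and 3092 at 0 h, 1753, 2012 and 3042 at 4 h, 1626, 1311 and 2508 at 12 h, 2064, 1429 and 3801 at 24 h and 1681, 1879 and 4097 at 48 h. Replicate 3 was above all other arrays and highest at 48 h, and no hour was called. Fasn, fatty acid synthase, read 1514, 1270.0 and 2191 at 0 h, 1026, 1199 and 1900.1 at 4 h, 1155, 1039 and 2281 at 12 h, 820.1, 823 and 1949 at 24 h and 1243, 1329 and 2210.2 at 48 h. Its 24 h arrays were the lowest in replicates 1 and 2, and every array of replicate 3 was higher than any other. The 24 h difference of Fasn was -0.55 (SE 0.38, adjusted p = 0.522) over all arrays, -0.74 (adjusted p = 0.00366) in replicates 1 and 2 and -0.17 in replicate 3. From 24 to 48 h Fasn rose in replicates 1 and 2 by 0.63 (adjusted p = 0.0263).

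The elongase and desaturases lengthen and desaturate the products. Scd1, a stearoyl-CoA desaturase that makes monounsaturated fatty acids, read 704, 765 and 1079.9 at 0 h, 518, 654 and 993 at 4 h, 361, 369 and 1086 at 12 h, 289.5, 344 and 1219 at 24 h and 381, 436 and 1221 at 48 h. In replicates 1 and 2 each later array up to 24 h was below the one before it, while replicate 3 was higher at 24 and 48 h than at 0 h. Its 24 h difference was -0.71 (SE 0.54, adjusted p = 0.571) over all arrays, -1.15 (adjusted p = 0.000519) in replicates 1 and 2 and 0.17 in replicate 3. At 48 h it was still lower in replicates 1 and 2, at -0.81 (adjusted p = 0.00668).

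Scd2, a related stearoyl-CoA desaturase, read 5197, 4967 and 5067 at 0 h, 3522, 3415 and 4818 at 4 h, 2866, 2679 and 6402 at 12 h, 3233, 3352 and 5958 at 24 h and 4017, 4574 and 4852 at 48 h. At 0 h the 3 replicates were alike, and from 4 to 24 h replicates 1 and 2 were below replicate 3. The 12 h difference was -0.87 (adjusted p = 0.00166) in replicates 1 and 2 and 0.34 in replicate 3. At 4 h all its arrays lay below those at 0 h, as did those of 5.37% of all probe sets. The difference of -0.39 (SE 0.29, adjusted p = 0.999) was not called. Other tested A probe sets of Scd2 gave -0.60 and -0.96 at 4 h over all arrays, also not called.

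Fads1, the delta-5 desaturase of polyunsaturated fatty acids, read 904, 914 and 1579 at 0 h, 664, 699 and 1240.2 at 4 h, 540.3, 578 and 1362 at 12 h, 416, 484 and 1246 at 24 h and 721, 822 and 1639 at 48 h. Replicate 3 was above all other arrays at every hour, and all replicates had a lower value at 24 h than at 0 h. Its 24 h difference was -0.97 (adjusted p = 0.000588) in replicates 1 and 2, against -0.33 in replicate 3, and it was called with replicate 3 as a term (adjusted p = 0.00194). It rose again by 48 h in replicates 1 and 2, by 0.74 (adjusted p = 0.013). A second probe set for Fads1, on B, had a higher mean intensity than the A one used (1415 against 920). Its 24 h difference over all arrays was -0.27 and was not called (limma adjusted p = 0.670).

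Fads2, the delta-6 desaturase, read 740.3, 697 and 833 at 0 h, 396, 341 and 852 at 4 h, 342, 414 and 908 at 12 h, 326, 327 and 772 at 24 h and 545, 625 and 1142 at 48 h. Replicates 1 and 2 were lower than at 0 h on every later array, and replicate 3 was highest at 48 h. Its difference in replicates 1 and 2 was -0.91 (adjusted p = 0.0467) at 4 h and -1.07 (adjusted p = 0.000645) at 24 h. Elovl6, which elongates palmitate, read 421, 436 and 849 at 0 h, 327, 321 and 751 at 4 h, 211, 293 and 970.5 at 12 h, 261, 236 and 968 at 24 h and 446, 456 and 845 at 48 h. Its values at 48 h were above those at 0 h in replicates 1 and 2, and those of replicate 3 stayed high throughout. Elovl6 fell at 12 and 24 h in replicates 1 and 2, by 0.72 on the log2 scale at each (adjusted p = 0.0378 and 0.014), and rose from 24 to 48 h by 0.79 (adjusted p = 0.024). A dimmer Elovl6 probe set on B did not share this course: over all arrays its differences were 0.08 at 12 h and 0.01 at 24 h, against -0.42 at both hours for the brighter one.

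**Figure D2:**
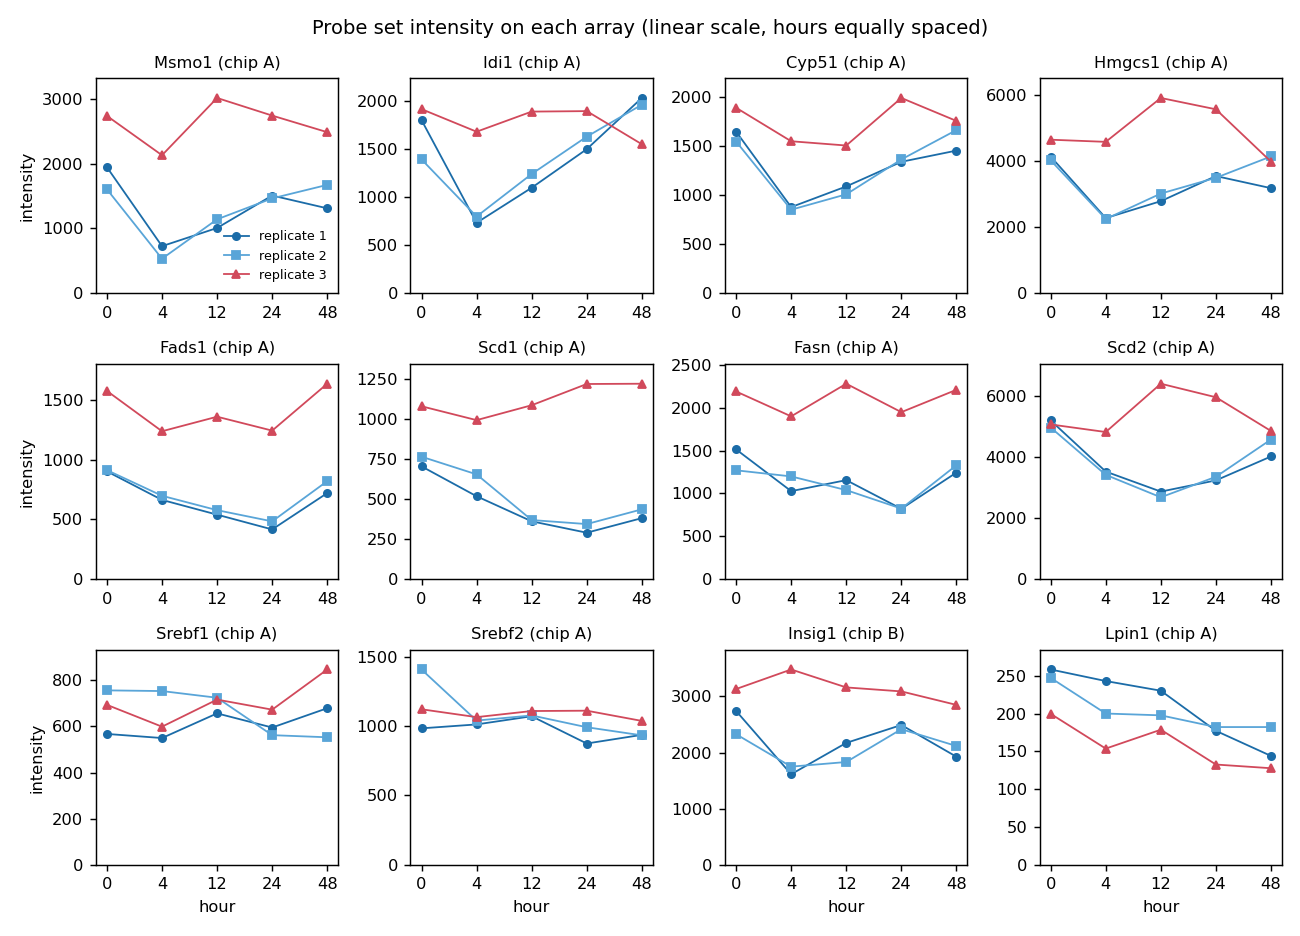
Intensity (linear scale) against hour (equally spaced) for 12 members, 1 line per replicate. Msmo1, Idi1, Cyp51 and Hmgcs1 dip at 4 h in replicates 1 and 2, Fads1, Scd1 and Fasn are lowest there at 24 h, and the lines of Srebf1 and Srebf2 cross between replicates.

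Among the regulators, Srebf1 read 568, 757 and 694 at 0 h, 549.8, 754 and 599 at 4 h, 657, 725 and 717 at 12 h, 595, 562 and 673 at 24 h and 679, 553 and 847 at 48 h. Its replicates crossed, and no hour stood apart. Srebf2 read 983, 1407 and 1120.0 at 0 h, 1011, 1039 and 1063 at 4 h, 1069.8, 1076 and 1107 at 12 h, 874, 991 and 1109.8 at 24 h and 936, 932 and 1036 at 48 h. The 0 h array of replicate 2 was the highest of its arrays, and the others lay close together. The 24 h differences were -0.13 (SE 0.17, adjusted p = 0.775) for Srebf1 and -0.22 (SE 0.14, adjusted p = 0.476) for Srebf2. A second Srebf2 probe set on A, nearly as bright, had larger differences over all arrays. They were -0.37 at 4 h, -0.45 at 24 h (limma adjusted p = 0.226) and -0.48 at 48 h (adjusted p = 0.213), not called. With the brightest probe set of each, neither gene was called in any comparison of hours in any of the fits over all arrays or over replicates 1 and 2. These are transcript levels, and the cleavage that activates the encoded factors was not measured.

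Insig1, which retains the SREBP precursors and is itself a target of them, read 2741, 2327 and 3132 at 0 h, 1614, 1749 and 3480.2 at 4 h, 2172, 1832 and 3161 at 12 h, 2491, 2416 and 3089.6 at 24 h and 1926, 2117 and 2849 at 48 h on B. Replicates 1 and 2 were lowest at 4 h, where replicate 3 was at its highest, and replicate 3 was above all other arrays. The 4 h difference was -0.57 (adjusted p = 0.36) in replicates 1 and 2 and 0.15 in replicate 3. Stard4, a carrier of cholesterol between membranes, read 583, 398 and 742 at 0 h, 275, 239.5 and 740.2 at 4 h, 369, 353 and 848 at 12 h, 342, 360.3 and 943 at 24 h and 523, 455 and 792 at 48 h. Replicates 1 and 2 were again lowest at 4 h, and replicate 3 was above all other arrays. Its 4 h difference was -0.84 (adjusted p = 0.136) in replicates 1 and 2 and near 0 in replicate 3.

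Lpin1, a phosphatidate phosphatase that also acts on gene expression, was the 1 member called lower in replicate 3. It read 258, 247 and 199.8 at 0 h, 243, 200.2 and 154 at 4 h, 230.4, 198 and 179 at 12 h, 177, 182 and 133 at 24 h and 144, 182 and 128 at 48 h. At each hour its lowest array was that of replicate 3, and all its arrays at 24 and 48 h were below those at 0 h. Among all probe sets 9.84% were lower without overlap at 24 h and 8.68% at 48 h. The 48 h difference was -0.55 (SE 0.19, adjusted p = 0.17), and it was called with replicate 3 as a term (adjusted p = 0.0253).

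Counted over hours, 0 members were called over all arrays at 12 h (0.00369% of probe sets), 24 h (1.76%) or 48 h (1.64%), and 0 in the F test over all hours (1.43%). The numbers of members with an unadjusted p under 0.05 were 1, 2, 1 and 4, beside 1748, 3712, 3871 and 3622 of 27081 probe sets. Replicates 1 and 2 alone gave 8 called lower at 12 h (3 sterol and 5 fatty acid enzymes, with 1.33% of probe sets called lower), 10 at 24 h (3 and 7, with 5.43%) and 2 at 48 h (Acly and Scd1, with 4.99%), and none was called higher. The F test called 18 there (12.7% of probe sets): 10 of 17 sterol enzymes, 7 of 8 fatty acid enzymes and Stard4. With replicate 3 as a term 6 members were called lower at 24 h (Acly, Fasn, Scd1, Fads1, Fads2 and Tm7sf2), where 4.43% of probe sets were called lower, and 2 at 48 h (Lpin1 and Mvk), where 3.66% were. Over all arrays, the members whose mean log2 level went against their list were Hsd17b7, Dhcr7 and Srebf1 at 12 h, Pmvk, Hsd17b7 and Dhcr7 at 24 h, and Idi1, Srebf1, Stard4 and Elovl6 at 48 h, where the lanosterol to cholesterol list was split 4 to 4. The comparisons with 0 h use the same 0 h arrays.

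The branches were also set side by side by the hour of their lowest value. The lowest mean of replicates 1 and 2 was at 4 h in 11 of 17 sterol enzymes and at 24 h in 6 of 8 fatty acid enzymes. In replicate 3, with 1 array per hour, 10 of 17 sterol enzymes were lowest at 48 h and 5 of 8 fatty acid enzymes at 4 h. The median log2 difference at 4 h was -0.47 for the sterol and -0.32 for the fatty acid enzymes over all arrays, and at 24 h it was -0.16 and -0.50. The sterol median minus the fatty acid median was -0.25, -0.15 and -0.07 in replicates 1, 2 and 3 at 4 h, which is the same sign in each. At 12 h it was 0.22, 0.27 and 0.08. At 24 h it was 0.46, 0.58 and -0.05, so replicates 1 and 2 shared a sign and replicate 3 did not. At 48 h it was 0.16, 0.19 and -0.26. Over all arrays the difference was 0.34 at 24 h, and 0.62 when the 24 h array of replicate 3 was left out. It was 0.17 at 12 h (0.38 when the 12 h array of replicate 3 was left out, 0.29 when it was the 0 h array of replicate 1), -0.14 at 4 h (-0.28 leaving out replicate 3 at 0 h) and -0.03 at 48 h (0.21 leaving out replicate 3 at 48 h). With a second probe set of each gene that had one (the brightest other tested one on either chip), it was -0.06, 0.08, 0.19 and -0.02 at 4, 12, 24 and 48 h. Some of these, on B, had a higher mean intensity than the one used, as for Hsd17b7 (2640 against 483), Sc5d (1110 against 823) and Fads1 (1415 against 920). Each median describes its list, and no test was made of it.

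The 24 h arrays were also compared with the 4 h arrays, a comparison that does not use 0 h and was added after the data were seen. Over all arrays 0 of 30 members were called, with 0.956% of probe sets called. At an unadjusted p under 0.05 there were 3 members and 3725 of 27081 probe sets. Of the means of replicates 1 and 2, those of 15 of 17 sterol enzymes were higher and those of 8 of 8 fatty acid enzymes lower at 24 h than at 4 h. There, Msmo1, Idi1, Cyp51 and Hmgcs1 were called higher (4.38% of probe sets were), and Tm7sf2, Scd1 and Fads1 lower (4.99%). In replicate 3, with 1 array per hour, 12 of 17 sterol and 6 of 8 fatty acid enzymes were higher at 24 h. Over all arrays, other tested probe sets of Elovl6, Scd2 and Acly were higher at 24 h than at 4 h, by 0.57, 0.18 and 0.14. Those used for these genes had differences of -0.11, 0.05 and -0.12. The remaining tested probe sets of the 8 fatty acid enzymes, beyond those used, were lower at 24 h. The plot of the 4 h against the 24 h change separates the branches in replicates 1 and 2 and not in replicate 3.

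**Figure D3:**
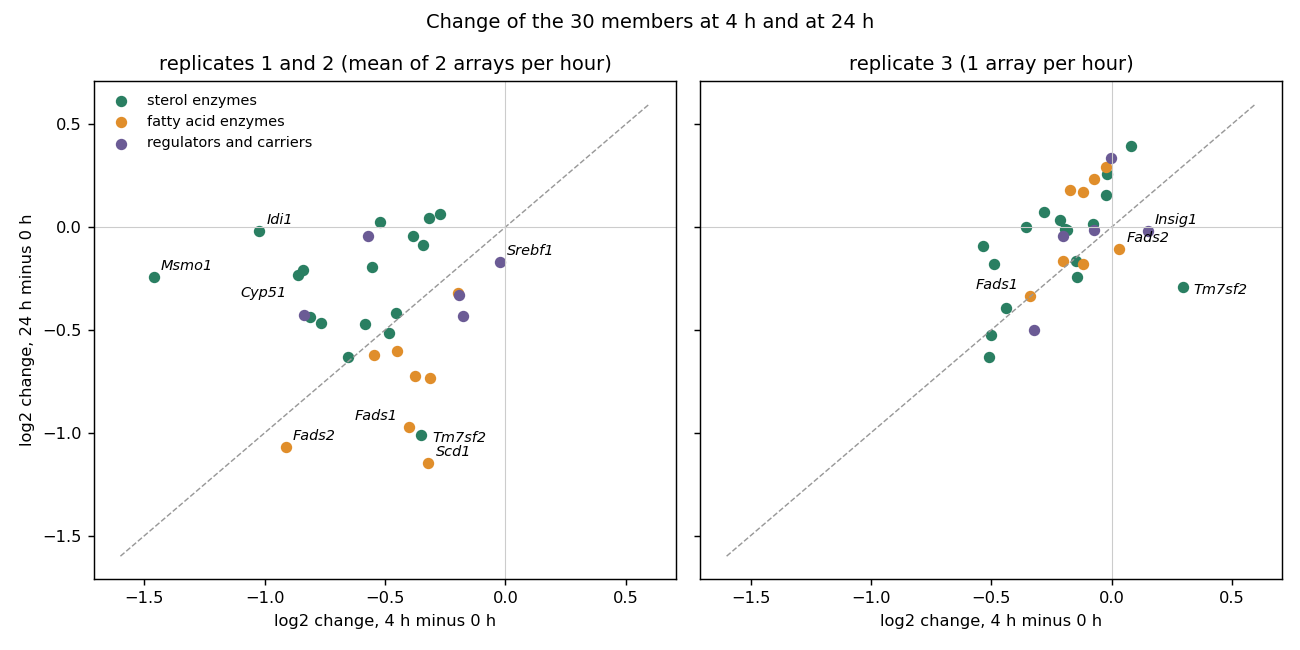
Log2 change at 4 h (horizontal) and at 24 h (vertical), both against 0 h, for 30 members in replicates 1 and 2 (left, means of 2 arrays per hour) and replicate 3 (right, 1 array per hour), with the line of equal change dashed. On the left all 8 fatty acid enzymes lie below the line and 15 of 17 sterol enzymes above it, and on the right 6 of 8 and 12 of 17 lie above it. Both axes use the same 0 h arrays.

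From 24 to 48 h all 8 fatty acid enzymes had a higher mean (median log2 difference 0.35), and 12 of 17 sterol enzymes did (median 0.08). The sterol medians were 0.32, 0.26 and -0.22 in replicates 1, 2 and 3, so replicate 3 went the other way. The fatty acid medians were 0.47, 0.56 and 0.08. Over all arrays 0 members were called, with 0.0702% of probe sets called. At an unadjusted p under 0.05 there were 1 member and 2785 of 27081 probe sets. In replicates 1 and 2 Fads1, Elovl6, Fads2 and Fasn were called higher, with 2.19% of probe sets called higher. Msmo1 was the 1 member of its list with a lower mean at 48 h than at 24 h (-0.05), and Idi1 and Mvd had higher means (0.14 and 0.06) while the other 4 mevalonate enzymes had lower ones. From 4 to 12 h and from 12 to 24 h limma called 0 members over all arrays (0% of probe sets in each). At an unadjusted p under 0.05 there was 1 member in each, beside 1685 and 1650 of 27081 probe sets. In these steps Acaca, Fads2, Scd2, Tm7sf2, Ebp, Hsd17b7, Mvk, Mvd, Insig1 and Stard4 each went against their list once or more.

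Replicate 3 differed from replicates 1 and 2 in most members at all hours together. Fads1 averaged 674 ± 171 (SD, n = 10) in replicates 1 and 2 and 1413 ± 186 (SD, n = 5) in replicate 3, and Scd1 averaged 482 ± 169 (SD, n = 10) in replicates 1 and 2 and 1119.9 ± 98.5 (SD, n = 5) in replicate 3. Lss averaged 235 ± 58.1 (SD, n = 10) in replicates 1 and 2 and 656 ± 206 (SD, n = 5) in replicate 3. These members had no array of replicate 3 within the range of the others. With hour in the fit, 22 of 30 members were called higher in replicate 3 and Lpin1 lower, where 12% of all probe sets were called higher and 12.4% lower. The median difference over the 30 members was 0.55, against -0.01 over all tested probe sets. In 12 members every array of replicate 3 lay above every other array, which 4.24% of all probe sets did.

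All 8 fatty acid enzymes were called higher, with a median of 0.91 and a range from 0.49 to 1.33. The differences were 1.33 (SE 0.14, adjusted p = 1.36e-06) for Elovl6, 1.23 (SE 0.15, adjusted p = 7.15e-06) for Scd1 and 1.07 (SE 0.09, adjusted p = 2.67e-07) for Fads1. Fasn was higher by 0.89 (SE 0.09, adjusted p = 1.07e-06). Of the 17 sterol enzymes 12 were called higher, with a median of 0.45 over the 17. Lss and Msmo1 led them, the latter with 1.08 (SE 0.14, adjusted p = 1.24e-05), followed by Mvk with 1.00 (SE 0.14, adjusted p = 4.47e-05). The sterol enzymes that were not called were Mvd with 0.25 (SE 0.15), Hsd17b7 with 0.23 (SE 0.13), Nsdhl with 0.22 (SE 0.12), Ebp with 0.09 (SE 0.11) and Tm7sf2 with -0.27 (SE 0.11). Among the called ones, Idi1 was called in 12 of 25 alternative settings, Pmvk in 21 of 24 and Fdft1 in 22 of 25.

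The difference was 0.14 (SE 0.10, adjusted p = 0.333) for Srebf1 and 0.08 (SE 0.09, adjusted p = 0.489) for Srebf2, neither of them called. Insig1 was higher by 0.56 (SE 0.10, adjusted p = 0.00101) and Stard4 by 1.04 (SE 0.12, adjusted p = 7.01e-06). Lpin1 was lower, at -0.33 (SE 0.10, adjusted p = 0.0173), a call that did not hold when replicate 3 was left out at 4 h or at 24 h. Other probe sets of 4 called members did not pass: a B probe set gave 0.21 for Acly (adjusted p = 0.503), 0.05 for Elovl6 (adjusted p = 0.946), 0.25 for Fads1 (adjusted p = 0.117) and 0.67 for Msmo1 (adjusted p = 0.0820). Of these B probe sets, only that of Fads1 had a higher mean intensity than the A one used. A second A probe set for Elovl6 gave 1.15 and was called.

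**Figure D4:**
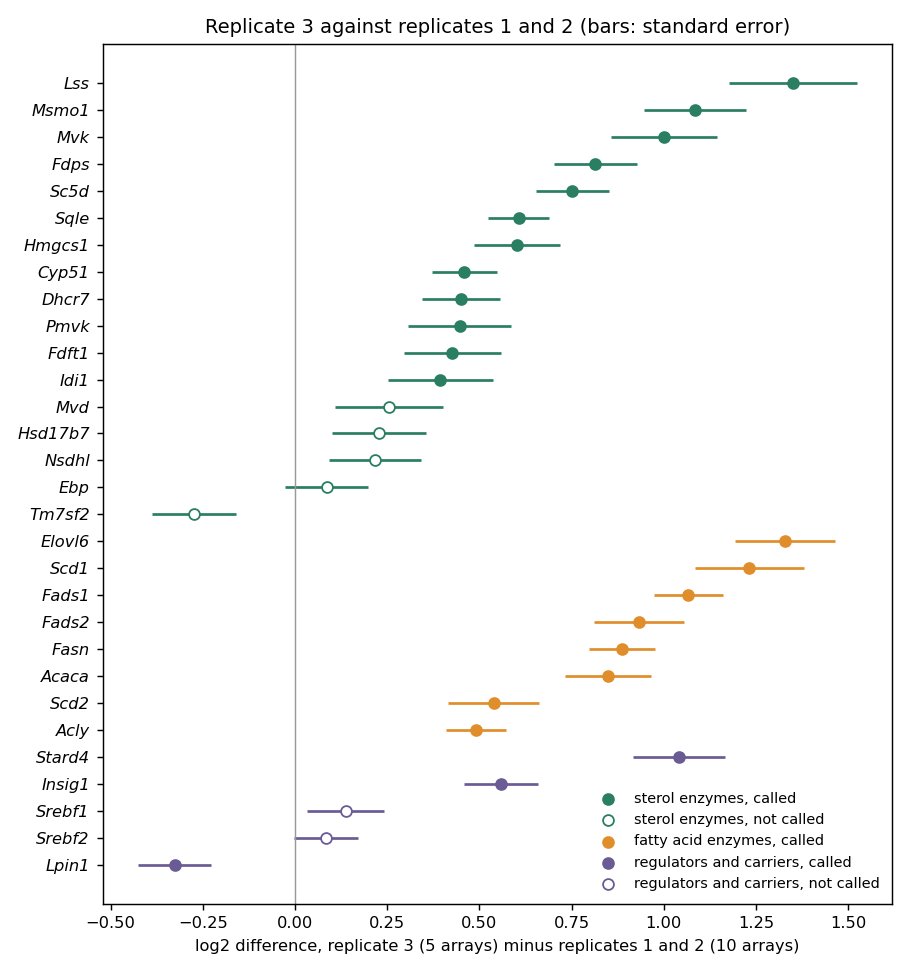
Log2 difference of replicate 3 (5 arrays) minus replicates 1 and 2 (10 arrays) with hour in the fit, for 30 members grouped by branch, with bars of 1 standard error. Filled points were called and open points were not: all 8 fatty acid enzymes and 12 of 17 sterol enzymes are filled on the right of 0, Srebf1 and Srebf2 are open, and Lpin1 is filled on the left.

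Whether the change with time differed between replicate 3 and the others was tested as an interaction, at 48 h as designed and at 4, 12 and 24 h as an addition after the data were seen. This leaves 5 residual degrees of freedom, all from replicates 1 and 2. No member was called in limma at 4 h (0.00739% of probe sets), 12 h (0.0332%), 24 h (0.425%) or 48 h (1.17%). An unadjusted p under 0.05 was found for 9, 12, 9 and 5 of the 30 members, beside 1269, 1894, 2442 and 3133 of 27081 probe sets. At 4 h the difference of changes was largest for Msmo1, 1.10 (SE 0.30, adjusted p = 0.802). At 12 h Scd2 had 1.20 (SE 0.20, adjusted p = 0.0627), and at 24 h Scd1 had 1.32 (SE 0.27, adjusted p = 0.0537). At 48 h Scd1 had 0.98 (SE 0.27, adjusted p = 0.121) and Fdft1 -0.83 (SE 0.27, adjusted p = 0.175). Scd2 at 12 h and Scd1 at 24 h were called when only the upper 40% of probe sets were tested (adjusted p = 0.0443 and 0.0465), with array quality weights (0.0345 and 0.0265, with Scd2 called at 24 h too), and when the 4 h array of replicate 1 (0.04997 and 0.0297) or of replicate 2 (0.0487 and 0.0302) was left out.

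Genes next to the 2 branches were counted from further lists. Of 11 measured genes of other sterol synthesis, sensing and uptake, 2 were called lower at 24 h over all arrays, Npc2, which exports lysosomal cholesterol (log2 difference -0.60, SE 0.13, adjusted p = 0.0263), and Scap, the escort of SREBP (-0.66, SE 0.15, adjusted p = 0.0302), among 0.661% of probe sets called lower. At 4, 12 and 48 h 0 of the 11 were called. At an unadjusted p under 0.05 there were 0, 2 and 1, beside 1403, 1748 and 3871 of 27081 probe sets. In replicate 3, Lbr, a sterol reductase and lamin receptor (1.02), and the lipoprotein receptor gene Scarb1 (0.97) were called higher, beside 12% of all probe sets. Insig2, a relative of Insig1, was among 2 called lower (-0.54), beside 12.4%. At 4 h the median log2 difference of these 11 was -0.01, beside -0.47 for the 17 sterol enzymes.

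Of 20 measured genes of other fatty acid and lipid synthesis, limma called 0 in the comparisons with 0 h over all arrays. At 4, 12, 24 and 48 h 0%, 0.00369%, 1.76% and 1.64% of all probe sets were called. An unadjusted p under 0.05 was found for 1403, 1748, 3712 and 3871 of 27081 probe sets, and for 1, 1, 4 and 4 of these 20 genes. In replicate 3, 5 were called higher (12% of all probe sets) and 6 lower (12.4%): the citrate carrier Slc25a1 (0.90) and Aacs, which activates acetoacetate (0.83), were among the higher, and the acyl-CoA synthetase Acsl3 (-0.82) among the lower. Of 3 measured genes of LXR and sterol efflux, Mylip, which degrades lipoprotein receptors (-0.83), and Rxra (-0.28) were lower in replicate 3, and of 10 of non-sterol isoprenoids only Ggps1 (-0.52) was called.

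Cell division genes also stood apart in replicate 3. All 21 measured genes of that list were called higher in replicate 3 (median log2 difference 1.06), where 12% of all probe sets were. The summed intensity of the 20 on A was 16361 to 31927 on the arrays of replicates 1 and 2 and 38190 to 49112 on those of replicate 3, without overlap. In replicates 1 and 2 it was 28107 and 31927 at 0 h, 24925 and 26935 at 4 h, 19624 and 19411 at 12 h, 16361 and 16568 at 24 h and 26477 and 26648 at 48 h, and 20 of the 21 were called lower at 24 h, as were 5.43% of all probe sets. The sum was thus lowest at the hour where the fatty acid enzymes were lowest in these replicates, while the sterol enzymes were lowest at 4 h. The part of cell division in either result was not tested.

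Markers of other cell types were counted too. The summed intensity of the 15 skeletal muscle markers was 71119 to 123429 in replicates 1 and 2 and 72483 to 104960 in replicate 3. At 48 h it was 123429 and 110265 in replicates 1 and 2 and 73723 in replicate 3. The difference of the 48 h change between them was negative for 15 of 15 of these markers, and limma called 7 (0.602% of all probe sets were called in that direction). Of these markers 2 were called higher and 5 lower in replicate 3, beside 12% and 12.4% of all probe sets, and 8 were called higher at 24 h over all arrays, beside 1.1%. Of 10 adipocyte markers 2 passed the filter on dim probe sets, Cebpa and Retn. In limma over all arrays Cebpa was called lower at 48 h (-2.06, adjusted p = 0.00988), beside 1.64% of probe sets called in either direction. It was also called lower in replicate 3 (-0.51, adjusted p = 0.0464), beside 12.4%, and Retn was called in neither. The sum of the 8 adipocyte markers measured on A was 353.8 to 964.6 in replicates 1 and 2 and 343.6 to 594.5 in replicate 3. In replicates 1 and 2 this sum was 879.6 and 964.6 at 0 h, 353.8 and 451.7 at 24 h and 468.2 and 404.8 at 48 h. In replicate 3 it was 585 at 0 h, 423.5 at 24 h and 343.6 at 48 h. The sum of 8 fibroblast markers, most of it the collagen Col3a1, was 4136 and 4065 at 0 h and 2186 and 2266 at 24 h in replicates 1 and 2. In replicate 3 it was 4512 at 24 h and 4636 at 48 h, above all arrays of the others at those hours. The difference of changes was called higher for Col3a1 at 24 h (log2 1.45, adjusted p = 0.0101; 0.262% of probe sets) and for Col3a1 and Postn at 48 h (0.572%). The sum of 5 Schwann and neural markers, most of it Ncam1, was 3261 and 3472 at 24 h in replicates 1 and 2 and 2289.9 in replicate 3. Few of the hepatocyte (2 of 8), fibroblast (3 of 8), macrophage (3 of 8), endothelial (2 of 8), and Schwann and neural (2 of 7) markers passed. Their part in the results was not tested.

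**Figure D5:**
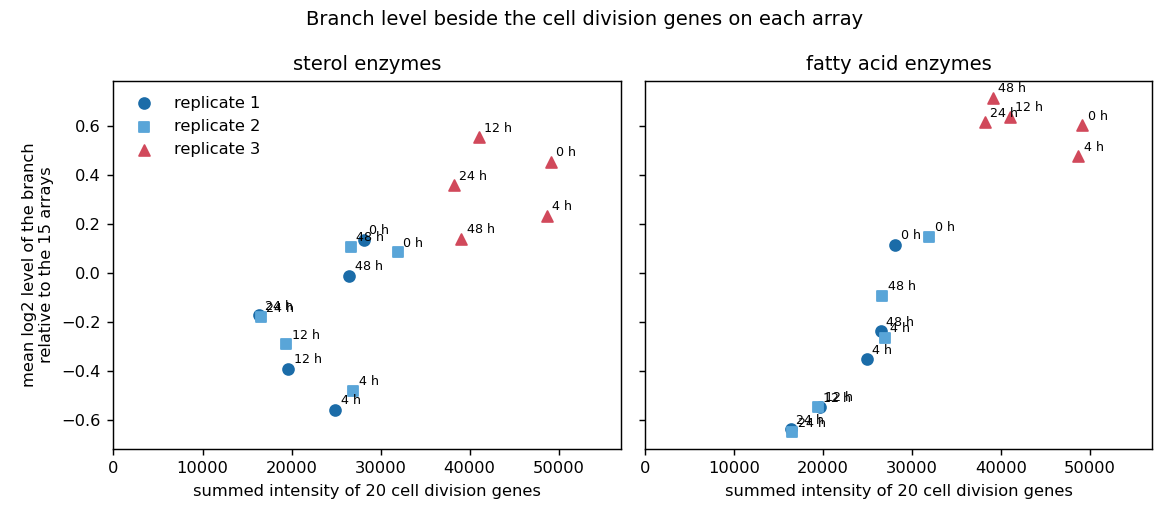
Mean log2 level of the sterol (left) and fatty acid (right) enzymes against the summed intensity of 20 cell division genes, 1 point per A array, labelled by hour. The fatty acid mean also takes in Acaca from the B array of the same hour and number. The 5 arrays of replicate 3 lie to the right of all others (38190 and above), and the 4 h arrays of replicates 1 and 2 are lowest for the sterol enzymes at sums of 24925 and 26935, while their 24 h arrays are lowest for the fatty acid enzymes at 16361 and 16568.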

How the data were processed

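Titles gave each array's hour, chip and replicate number. Linear intensities were deposited, 1 per probe set and array, which the authors had scaled to a common trimmed mean, as the values themselves show; per the labels, the manufacturer's standard protocol was used. Which software and algorithm summarised the probes is not given in the sources used here. Probe sets were named through GEO's platform annotation, which gave 20380 single-gene probe sets on A and 14661 on B. Control probe sets (64 per chip) were left out. Intensities were transformed to log2 after adding the 20th percentile (29 on A, 54 on B), and the upper 60% by mean were tested (13575 and 13506). Each chip had a fit of its own, with hour as the factor, in limma 3.58.1 (R 4.3.3; lmFit, eBayes with intensity trend), with Benjamini-Hochberg adjustment over the chip and two-sided tests. Replicate 3 was compared with hour as a covariate. For 3 arrays against 3 the smallest two-sided exact permutation p is 0.1. The number of arrays limits the precision.

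The fits were run on simulated data with independent normal noise on each array. The shifts put in were larger than most differences of members between hours over all arrays, so smaller shifts were not covered. The members, lists and tests were chosen with earlier results of these data known. Values of every array are given for Srebf1, Srebf2, Insig1, Fasn, Scd1 and Scd2 and, in each list, for the 2 members with the smallest F test p over hours and the 2 with the smallest p in replicate 3; Cyp51 was added after its values were seen. Alternatives covered scaling, pseudocount, filter, replicate terms, weights, probe set and each array left out. Figures were drawn with matplotlib 3.10.9.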

Additional observations from a re-analysis of the deposited data

How the results depend on the processing

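The counts of called members kept their size (within 1.5 times) under quantile normalization, median centring, the other pseudocounts, no filter, the fit of only the hours compared, no intensity trend and the second probe set. In replicate 3 against replicates 1 and 2 they ranged from 20 to 23, and from 19 to 25 with single arrays left out. The treatment of replicate 3 changed the counts by hour. With the replicate number as a block, 6 members were called at 24 h, 2 at 48 h, 1 from 24 to 48 h, 3 from 4 to 24 h and 6 over all hours, against 0 in each without it. With replicate 3 as a term the numbers were 6, 2, 2, 4 and 7, and with array quality weights they were 7 at 24 h, 2 from 24 to 48 h, 2 from 4 to 24 h, 7 over all hours and 1 from 12 to 24 h. Replicates 1 and 2 alone gave 6 at 4 h, 8 at 12 h, 10 at 24 h, 2 at 48 h, 4 from 24 to 48 h, 7 from 4 to 24 h and 18 over all hours. The cause was not tested. The labels do not say that the numbers pair the arrays. On chip A correlations of same-numbered arrays' deviations were 0.04 to 0.62 in replicate 1, 0.12 to 0.46 in replicate 2 and 0.48 to 0.73 in replicate 3. On chip B they were 0.003 to 0.23, 0.04 to 0.20 and 0.23 to 0.43. On A 11 and on B 9 of 15 arrays matched their own number best. Since replicate 3 stood apart from the others, these values do not decide whether the numbers pair the arrays. The interaction of hour with replicate 3 was called for 1 member at 12 h (Scd2) and 1 at 24 h (Scd1) with the upper 40% of probe sets, and for 1 and 2 with array quality weights. With single arrays left out, the counts of called members ranged from 0 to 1 at 24 h (1 without 0 h replicate 3), from 4 to 24 h (1 without 4 h replicate 3), over all hours (1 without 0 h or 4 h replicate 3), and for the interaction at 12 and 24 h (1 without 4 h replicate 1 or 2). They stayed 0 in the other comparisons of hours. The sterol minus fatty acid difference ranged from -0.28 to -0.14 at 4 h, 0.11 to 0.38 at 12 h, 0.28 to 0.62 at 24 h and -0.19 to 0.21 at 48 h with single arrays left out, and at 48 h the mean of all probe sets gave 0.01 against -0.03. The second probe set brought it to 0.19 at 24 h. Comparisons from 4 to 24 h and the interactions at 4, 12 and 24 h were chosen after seeing the data. The dimmest members, such as Lpin1 and Pmvk, lie closest to the pseudocount, which shrinks their differences most.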
